A study of Rattus norvegicus with 6 samples.

Results

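The miRNAs described here are the mature arms of rno-miR-322, rno-miR-503, rno-miR-351, rno-miR-450a and rno-miR-542, whose hairpins lie beside each other on the rat X chromosome. They were chosen by name: each row of type mature whose identifier, without a final -3p or -5p, equalled one of these 5 names was taken. This gave 10 arms of 734 mature miRNAs in the table, a 5p and a 3p arm for each hairpin. Of these arms, 9 of 10 passed the filter on low counts, as did 549 of 734 miRNAs, and miR-450a-3p, with 2 to 13 reads per sample, did not.

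Small RNA of 18 to 30 nt was sequenced from cultured primary sertoli cells, the somatic cells that nurse the germ cells in the seminiferous tubule. The cells came from the testes of Sprague-Dawley rats aged 5 to 10 days and were used after passage in medium with fetal bovine serum. The 3 control samples received no 4-nonylphenol (4-NP, an alkylphenol with estrogen-like action), and the other 3 samples received 0.5 mM 4-NP for 24 h. The labels describe no genetic change in either group, and cells enriched from testes can hold other cell types of the testis.

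Neighbouring miRNA hairpins are often cut from one long primary transcript by Drosha, exported, and cut again by Dicer into a short duplex of a 5p and a 3p arm, of which one is usually loaded into Argonaute and the other degraded. The cluster studied here is known as the miR-424 and miR-503 cluster in humans, where miR-424 is the counterpart of rodent miR-322. miR-322-5p and miR-503-5p belong to the extended miR-15 and miR-16 family, which is known to restrain the cell cycle through cyclins and CDC25A. miR-351-5p shares its seed with the miR-125 family, and miR-542-3p is known to target survivin. Members cut from one transcript can still differ in level, since each arm has its own processing, loading and turnover, and the question asked was whether they moved together after 4-NP.

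The RefSeq annotation of assembly GRCr8 places the 6 hairpins of the locus on the minus strand of chromosome X within 5309 bases. In the direction of transcription, Mir322 (chrX:137726147-137726241) comes first. Mir503 (chrX:137725856-137725926) follows after 220 bases and Mir351 (chrX:137725116-137725196) after a further 659 bases. Mir542 (chrX:137722176-137722254) lies 2861 bases beyond Mir351. The miR-450b hairpin Mir450b-1 (chrX:137721078-137721146) and Mir450a1 (chrX:137720933-137721023) end the row, with 54 bases between them. Mir322, Mir503 and Mir351 lie inside the annotated long non-coding RNA gene LOC102550366, and Mir542, Mir450b-1 and Mir450a1 lie outside it. Intron and exon positions within that gene were not used here.

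The mature sequences below are shown because the seed, bases 2 to 8 in capitals, sets which messages an arm can pair with. They are the arms on which the results turn, from RefSeq (GRCr8), written 5′ to 3′, and all 10 member arms had an entry.
miR-322-5p: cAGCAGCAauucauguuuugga
miR-503-5p: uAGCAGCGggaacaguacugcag
miR-16-5p: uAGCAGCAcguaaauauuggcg
miR-351-5p: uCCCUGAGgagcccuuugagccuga
miR-125b-5p: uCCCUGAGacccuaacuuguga
miR-542-5p: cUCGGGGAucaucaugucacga
miR-542-3p: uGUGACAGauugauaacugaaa
miR-450a-5p: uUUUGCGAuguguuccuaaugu
miR-450b-5p: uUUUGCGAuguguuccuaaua

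miR-322-5p has the full seed of miR-16-5p, whereas miR-503-5p shares bases 2 to 7 with both and departs at base 8. miR-351-5p starts with the same 8 bases as miR-125b-5p. miR-450a-5p and miR-450b-5p have the same first 20 bases and differ only at the 3′ end, so that a read without the last bases fits either, and the split of reads between them is uncertain. The 3p arms of the cluster share no seed with one another. The 5p arms of the cluster therefore fall into 4 seed groups, with miR-322-5p and miR-503-5p together in the first.

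The count table held 22291892 to 23426742 reads on mature miRNAs in the control samples and 20023200 to 22130929 after 4-NP, and miR-21-5p took 62.0% to 63.9% of them. Levels are given as CPM, a sample's counts scaled to a common total of its mature miRNA reads, so that 3 reads, the most that a count of 0 allows, were 0.128 to 0.150 CPM. The 10 member arms together made up 0.494% to 0.513% of the mature reads in the controls and 0.272% to 0.345% after 4-NP. The labels do not say that the samples of a group were separate cultures, and p-values therefore measure the spread between these samples, which may be technical.

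Of the member arms, miR-322-5p, miR-503-5p and miR-351-5p fell after 4-NP, by 2.72-fold, 5.31-fold and 3.29-fold. These are the main products of the first 3 hairpins of the row. miR-542-5p and miR-450a-5p, the main products of hairpins farther along, did not pass the test, and their intervals did not reach these falls. By edgeR with an adjusted p under 0.05, 3 of the 9 tested arms were lower and 0 were higher, beside 12.8% of the 549 tested miRNAs lower and 7.47% higher. By the fold change of the study's filter (over 2 or under 0.5, with an unadjusted p under 0.05), the same 3 arms were lower, beside 9.84% of tested miRNAs lower and 5.83% higher. The median log2 fold change was -0.57 over the 9 tested arms and -0.02 over all tested miRNAs. Of the 9 tested arms, 6 lay below the controls in every treated sample with no overlap, as did 22.6% of all tested miRNAs. All 9 had a negative log2 fold change, as did 51.0% of all tested miRNAs. The tested 3p arms did not pass after adjustment. Their unadjusted p by edgeR was 0.0240 for miR-322-3p, 0.0185 for miR-503-3p, 0.0430 for miR-351-3p and 0.0479 for miR-542-3p. The share of all tested miRNAs under 0.05 without adjustment and without a fold limit was not counted.

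**Figure D1:**
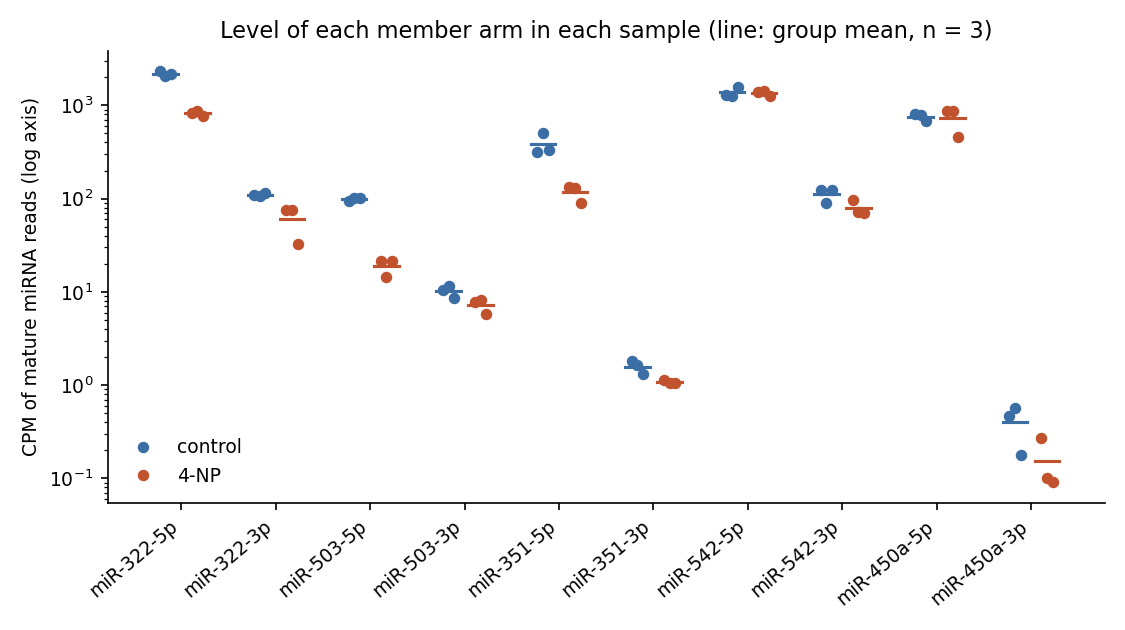
Level of each of the 10 member arms in each of the 6 samples, in CPM on a log axis, with a point for each sample and a line for the mean of 3 samples. The control (blue) and 4-NP (orange) points of miR-322-5p, miR-503-5p and miR-351-5p stand far apart, whereas those of miR-542-5p and miR-450a-5p overlap.

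miR-322-5p, the most abundant arm of the cluster in the controls, was at 2319, 2077 and 2188 CPM in the control samples and at 826, 863 and 773 CPM after 4-NP. The groups were far from overlapping, and the samples of each group lay close together. Its log2 fold change was -1.45 with a standard error of 0.13 (edgeR's quasi-likelihood test, adjusted p = 0.00053). Ranked by mean level among the 734 mature miRNAs, miR-322-5p moved from place 30 to place 52. Its partner arm miR-322-3p was at 110, 107 and 114 CPM in the controls and at 75.9, 74.8 and 32.3 CPM after 4-NP. All treated samples were below all controls, and 4-NP replicate 3 stood well below the other two. The fall of miR-322-3p did not pass the adjusted threshold (log2 fold change -0.90, SE 0.31, adjusted p = 0.0872 by edgeR), although it did with DESeq2 (adjusted p = 0.0248).

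miR-503-5p, which shares its first seed bases with miR-322-5p, showed the largest fold change of the cluster. It was at 94.6, 101 and 103 CPM in the controls and at 21.2, 14.3 and 21.4 CPM after 4-NP. No treated sample came near the controls, and 4-NP replicate 2 was the lowest. The log2 fold change was -2.41 (SE 0.21, adjusted p = 0.000487 by edgeR), and 19 of the 549 tested miRNAs had a lower one. miR-503-3p, a minor arm, was at 10.5, 11.4 and 8.52 CPM in the controls and at 7.77, 8.19 and 5.85 CPM after 4-NP. The highest treated sample was just under the lowest control, and the change did not pass (log2 fold change -0.50, SE 0.16, adjusted p = 0.0749 by edgeR).

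miR-351-5p, the miR-125 seed arm of the cluster, was at 319, 509 and 328 CPM in the controls and at 135, 129 and 90.0 CPM after 4-NP. Control replicate 2 stood above the other controls, and all treated samples were below the lowest control. Its log2 fold change was -1.72 with a standard error of 0.20 (edgeR, adjusted p = 0.00189). miR-351-3p was scarce, at 1.79, 1.65 and 1.30 CPM (42, 38 and 29 reads) in the controls and 1.13, 1.05 and 1.05 CPM (25, 21 and 23 reads) after 4-NP. The treated samples were again the lower ones, but the change did not pass after adjustment (log2 fold change -0.57, SE 0.23, adjusted p = 0.127 by edgeR). Its unadjusted p by edgeR was 0.0430, with a 95% interval from -1.12 to -0.02.

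miR-542-5p, from the next hairpin of the row, gave a different picture. It was at 1290, 1262 and 1582 CPM in the controls and at 1384, 1426 and 1264 CPM after 4-NP, so that the groups overlapped fully. Its log2 fold change was -0.05, with a 95% interval from -0.42 to 0.32 (edgeR, adjusted p = 0.84). With miR-322-5p lower, miR-542-5p became the most abundant arm of the cluster after 4-NP. miR-542-3p was at 123, 89.4 and 124 CPM in the controls and at 95.6, 72.3 and 70.3 CPM after 4-NP. One treated sample exceeded the lowest control, and the change did not pass (log2 fold change -0.54, SE 0.22, adjusted p = 0.136 by edgeR). Without control replicate 2, the lowest of the controls, it passed at a log2 fold change of -0.73 (edgeR, adjusted p = 0.0429).

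miR-450a-5p, at the far end of the row, was at 808, 783 and 680 CPM in the controls and at 860, 862 and 461 CPM after 4-NP. Of the treated samples, 2 lay above every control and replicate 3 lay below every control. The log2 fold change was -0.09, with a 95% interval from -0.65 to 0.47 (edgeR, adjusted p = 0.814). Without 4-NP replicate 3 it was 0.14, still far from the threshold. The scarce miR-450a-3p, with 11, 13 and 4 reads in control samples and 6, 2 and 2 in treated ones, did not pass the filter. With no filter on low counts, its log2 fold change was -1.34 (edgeR, adjusted p = 0.226).

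miR-450b, whose hairpin lies between those of miR-542 and miR-450a, is no member, and the split of reads between miR-450b-5p and miR-450a-5p is uncertain. miR-450b-5p was at 1105, 1087 and 984 CPM in the controls and at 720, 708 and 748 CPM after 4-NP. The groups did not overlap, and the log2 fold change was -0.56 (SE 0.12, adjusted p = 0.0196 by edgeR). miR-450b-3p also passed, with a log2 fold change of -0.77 (SE 0.18, adjusted p = 0.0243 by edgeR). Leaving out 1 sample at a time ended the call of miR-450b-5p without control replicate 1, 4-NP replicate 1 or 4-NP replicate 2, and that of miR-450b-3p without any sample but control replicate 3. Total-count scaling also ended the call of miR-450b-3p (edgeR, adjusted p = 0.0537). When the reads of miR-450a-5p and miR-450b-5p were summed, a choice made after seeing the data, the log2 fold change was -0.33 (edgeR, adjusted p = 0.114).

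**Figure D2:**
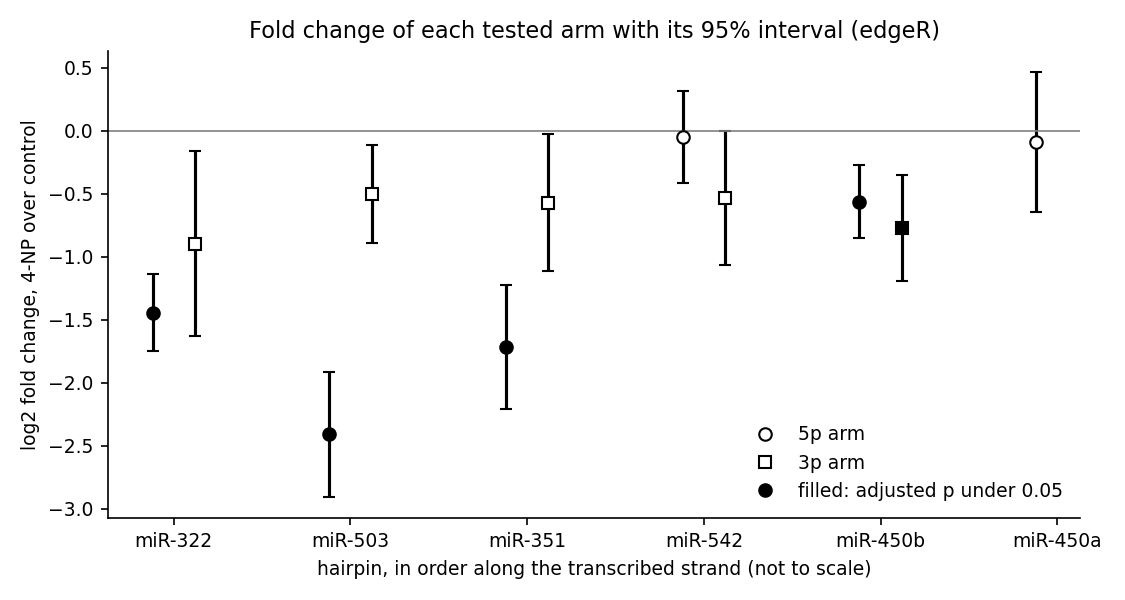
log2 fold change of 4-NP over control for each tested arm with its 95% interval from edgeR, in the order of the hairpins along the transcribed strand, for 3 samples in each group. Circles are 5p arms and squares 3p arms, filled where the adjusted p was under 0.05. The 5p arms of miR-322, miR-503 and miR-351 lie between -2.41 and -1.45, and those of miR-542 and miR-450a lie near 0. Both arms of miR-450b, which is no member, are filled, at -0.56 (5p) and -0.77 (3p).

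Some markers of other cell types moved in the same samples. Both arms of miR-126a, an endothelial miRNA, were lower (2 of 2 list members by edgeR), with a summed level of 6325 to 7615 CPM in the controls and 3234 to 3805 CPM after 4-NP. Of the 4 arms of miR-143 and miR-145, which mark smooth muscle and peritubular myoid cells, 2 were lower, and the sum went from 120596 to 136273 CPM to 88389 to 96697 CPM. Of the erythroid list (miR-451-5p, miR-144-5p and miR-144-3p), only miR-451-5p had enough reads to be tested, and it was higher by edgeR. The list summed to 11.0 to 40.3 CPM in the controls and 59.1 to 628 CPM after 4-NP, nearly all of it miR-451-5p. miR-144-3p overlapped between the groups (0.0897 to 0.260 and 0.0999 to 0.731 CPM), and miR-144-5p was at 0 in 4 samples. miR-122-5p, a liver miRNA, was at 0.0427 to 0.538 CPM in the controls and at 0.271, 21.7 and 1.42 CPM after 4-NP. It overlapped between the groups and did not pass edgeR after adjustment (log2 fold change 4.98, SE 1.74, adjusted p = 0.0923), but was called higher by DESeq2. Of the sertoli cell list (both arms of miR-202 and miR-140), 0 of 4 passed edgeR after adjustment or DESeq2 (1, miR-202-5p, was lower at an unadjusted p under 0.05), with a sum of 1382 to 1897 CPM and 1213 to 1404 CPM, and miR-202-3p was at 0 in 4-NP replicate 3. Of the germ cell list, 2 of 3 tested miRNAs were higher, while the sum overlapped between the groups (132 to 144 and 122 to 149 CPM) and miR-449c-5p was at 0 in 3 samples. The myeloid sum (8.05 to 10.5 and 8.36 to 14.1 CPM) and the striated muscle sum (14.4 to 20.0 and 13.4 to 15.4 CPM) overlapped too, with 0 of 3 tested miRNAs called in each by edgeR, before or after adjustment, or by DESeq2. In bulk RNA, fewer cells of a type and less RNA per cell cannot be told apart, and the part of these markers in the changes of the cluster was not tested.

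To ask whether the members moved together without any scaling between samples, each arm was read as a ratio to miR-322-5p within its own sample. The model then tested 548 miRNAs, of which 80.3% rose and 3.65% fell against miR-322-5p. A rise against miR-322-5p was therefore the rule among all miRNAs and is not particular to a member. miR-351-5p kept its ratio most closely. It was at 0.137, 0.245 and 0.150 reads per miR-322-5p read in the controls and at 0.163, 0.150 and 0.116 after 4-NP, with overlapping groups. The log2 change of that ratio was -0.31 with a 95% interval from -0.94 to 0.32 (edgeR, adjusted p = 0.30).

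miR-503-5p fell further than miR-322-5p, the only one of the 8 other arms to do so past the threshold. Its ratio was 0.0408, 0.0487 and 0.0469 in the controls and 0.0257, 0.0166 and 0.0277 after 4-NP. The treated ratios were all below the controls, and the log2 change was -0.96 (SE 0.23, adjusted p = 0.00554 by edgeR). The 2 arms with the same first seed bases thus fell by different amounts.

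miR-542-5p rose against miR-322-5p from 0.556, 0.608 and 0.723 reads per read to 1.68, 1.65 and 1.64. In the controls miR-322-5p was the more abundant in each sample, and after 4-NP miR-542-5p was. The log2 change was 1.40 (SE 0.14, adjusted p = 0.00016 by edgeR). miR-450a-5p went from 0.348, 0.377 and 0.311 to 1.04, 0.998 and 0.596, a log2 change of 1.35 (SE 0.24, adjusted p = 0.0015 by edgeR). The groups did not overlap, although 4-NP replicate 3 rose less than the other two. Of the 3p arms, miR-503-3p (0.92), miR-351-3p (0.86) and miR-542-3p (0.93) also rose in log2 ratio, and miR-322-3p, at 0.54, did not pass (edgeR, adjusted p = 0.124). The call of miR-351-3p was lost without control replicate 3 (edgeR, adjusted p = 0.0569), and miR-322-3p passed without 4-NP replicate 3 at a log2 change of 0.83 (edgeR, adjusted p = 0.00612). In all, 5 of the 8 arms rose against miR-322-5p and 1 fell.

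The makeup of the cluster's reads shifted accordingly. miR-322-5p held 45.7%, 42.0% and 42.7% of the reads of the 10 arms in the controls and 24.3%, 25.0% and 28.4% after 4-NP. miR-542-5p went from 25.4%, 25.5% and 30.8% to 40.6%, 41.3% and 46.5%. The shares of both arms were clear of overlap between the groups. Over all 36 pairs of tested arms, the SD of the log2 ratio of the pair across the 6 samples had a median of 0.543, beside 0.528 for the 113050 pairs of all miRNAs with 10 or more reads in every sample. The pairs share their libraries, and this is a description with no test. The members with the steadiest ratio were miR-503-3p and miR-351-3p (SD 0.177), and those with the least steady were miR-503-5p and miR-450a-5p (SD 1.35). Among the 5p arms, the SD was lowest for miR-450a-5p with miR-542-5p (0.341) and for miR-322-5p with miR-351-5p (0.359).

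Both arms of a hairpin are cut from the same precursor, and the ratio of 5p to 3p reads compares them within a sample. For miR-503 the ratio was 8.97, 8.86 and 12.0 in the controls and 2.73, 1.74 and 3.66 after 4-NP. All treated ratios were below all controls, with the 5p arm the further lowered (log2 difference -1.93). For miR-351 the ratio was 178, 309 and 252 in the controls and 119, 123 and 85.7 after 4-NP, again without overlap (log2 difference -1.15). The miR-542 ratio went the other way. It was 10.5, 14.1 and 12.8 in the controls and 14.5, 19.7 and 18.0 after 4-NP (log2 difference 0.48), and the lowest treated sample was just above the highest control. For miR-322 the ratio was 21.0, 19.4 and 19.3 in the controls and 10.9, 11.5 and 23.9 after 4-NP, with 4-NP replicate 3 above and the other treated samples below the controls. The exact two-sided permutation test over samples gave p = 0.1 for miR-503, miR-351 and miR-542, the smallest value that 3 against 3 samples allow (adjusted over the 4 hairpins, 0.133), and p = 0.4 for miR-322. This test over 3 against 3 samples therefore could not bring the ratios past the threshold.

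**Figure D3:**
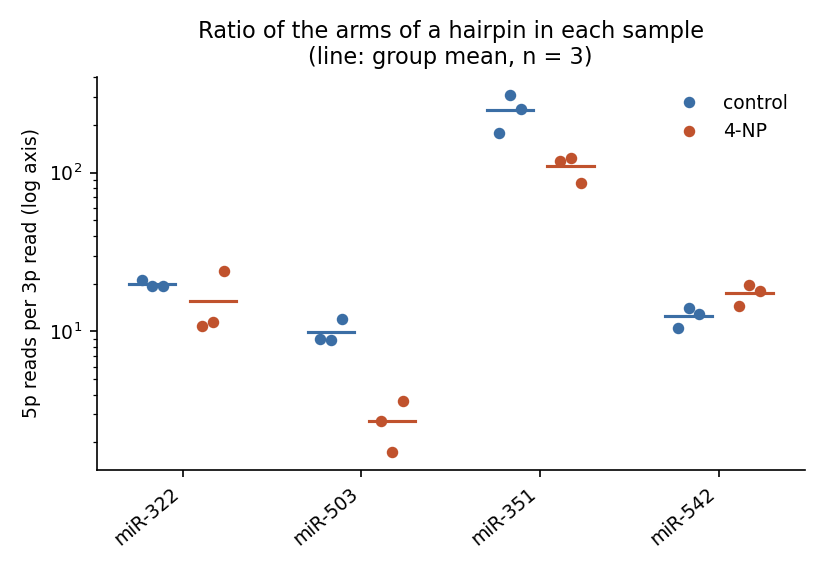
Reads of the 5p arm per read of the 3p arm for the 4 hairpins with at least 10 reads of both arms in every sample, on a log axis, with a point for each sample and a line for the mean of 3 samples. The treated points of miR-503 and miR-351 lie below their controls, those of miR-542 above, and those of miR-322 on both sides.

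The table also held rows for miRNA precursors, counted apart from the mature arms. The precursor row mir-503 was counted at 159, 129 and 166 reads in control samples and at 47, 24 and 57 reads in treated ones. The treated samples were all well below the controls. Tested among 738 other small RNAs, of which 7.86% were lower, its log2 fold change was -1.76 (SE 0.35, adjusted p = 0.0155 by edgeR), and the call was lost without control replicate 1 (adjusted p = 0.0572) or control replicate 3 (adjusted p = 0.0532). The row mir-542 was counted at 16, 19 and 16 reads in control samples and at 6, 0 and 0 in treated ones. This change did not pass (log2 fold change -2.98, SE 1.21, adjusted p = 0.129 by edgeR), and leaving out 4-NP replicate 1, which held all the treated reads, set it against 0 reads (fitted log2 fold change -7.04, which is no measure of size, adjusted p = 0.0294). For mir-351 the control samples gave 8, 12 and 9 reads and the treated ones 0, 2 and 2, and mir-450 had 3 reads in 1 treated sample and none elsewhere, too few to test. With inserts of 18 to 30 nt, such reads are fragments of a hairpin rather than whole precursors. Both tested precursor rows, mir-503 and mir-542, were lower in each treated sample than in each control, as were 11.8% of the 738 tested other small RNAs, and the mature miR-542-5p was not.

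miR-322-5p and miR-503-5p are known to act on targets that they share with the other miRNAs of their seed family. Of the 5 other arms of that family in the table (miR-15a-5p, miR-15b-5p, miR-16-5p, miR-195-5p and miR-497-5p), 0 passed the adjusted threshold by edgeR in either direction. At an unadjusted p under 0.05, and also by DESeq2 after adjustment, 2 of the 5, miR-16-5p and miR-195-5p, were higher. miR-16-5p, the most abundant, was at 5107, 4583 and 5114 CPM in the controls and at 6118, 6576 and 6747 CPM after 4-NP. The groups did not overlap (log2 fold change 0.37, SE 0.13, adjusted p = 0.0977 by edgeR, 0.0199 to 0.204 under the alternatives). miR-195-5p was at 233, 166 and 228 CPM in the controls and at 353, 336 and 358 CPM after 4-NP (log2 fold change 0.71, SE 0.21, adjusted p = 0.0605 by edgeR). It passed under 7 of 15 alternatives, among them DESeq2 (adjusted p = 0.00207).

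The 7 arms of the family summed to 8397, 7509 and 8279 CPM in the controls and to 8089, 8552 and 8496 CPM after 4-NP. The sums overlapped between the groups. The share that came from miR-322-5p and miR-503-5p was 28.7%, 29.0% and 27.7% in the controls and 10.5%, 10.3% and 9.35% after 4-NP, whereas that of miR-16-5p went from 60.8% to 61.8% in the controls to 75.6% to 79.4%. The summed level of the family thus stayed in the range of the controls or just above it, while a smaller share of it came from the cluster.

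**Figure D4:**
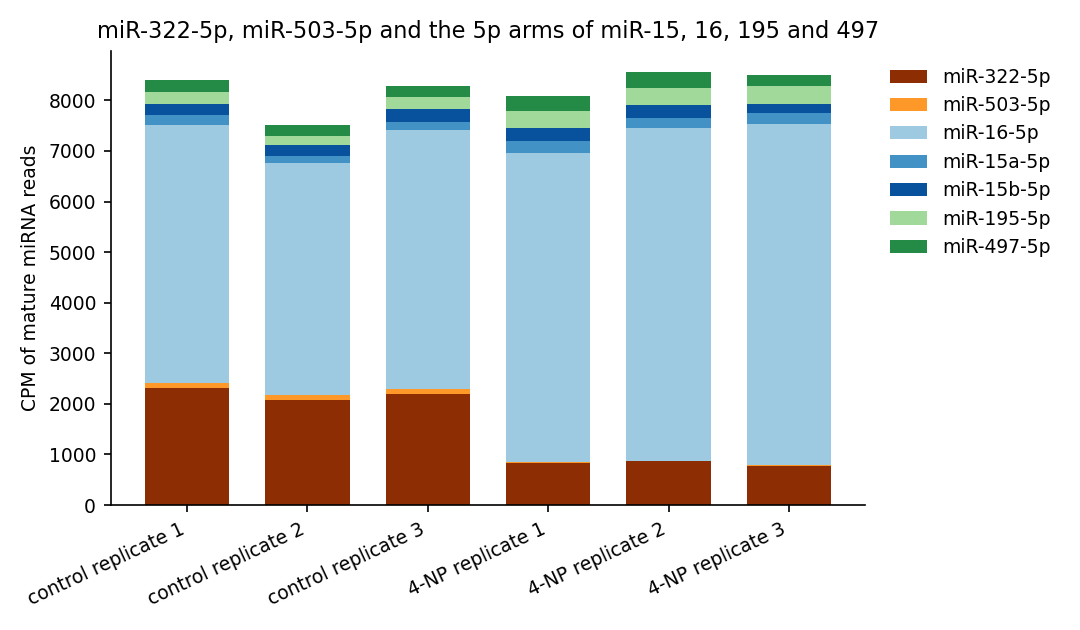
Level of 7 arms of one seed family in each of the 6 samples, in CPM, stacked so that a bar's height is their sum. The bars reach 7509 to 8397 CPM in the controls and 8089 to 8552 CPM after 4-NP, and the bottom segments (miR-322-5p and miR-503-5p) are lower in every treated sample.

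The seed of miR-351-5p is shared with miR-125a-5p and miR-125b-5p, neither of which passed the test, with edgeR before or after adjustment or with DESeq2. miR-125b-5p was at 1260, 1767 and 1150 CPM in the controls and at 688, 1261 and 487 CPM after 4-NP, with 4-NP replicate 2 among the controls (log2 fold change -0.79, SE 0.33, adjusted p = 0.143 by edgeR). Without that sample it passed at a log2 fold change of -1.18 (edgeR, adjusted p = 0.0237). miR-125a-5p was at 731 to 1109 CPM in the controls and 480 to 998 CPM after 4-NP (log2 fold change -0.15 by edgeR, adjusted p = 0.739). miR-351-5p held 13.8%, 15.0% and 14.2% of the reads of these 3 arms in the controls and 7.49%, 5.42% and 8.51% after 4-NP. The share was lower in every treated sample than in any control. These 3 arms summed to 2310, 3385 and 2315 CPM in the controls and to 1796, 2388 and 1057 CPM after 4-NP. The sums overlapped, with a lower mean after 4-NP (1747 CPM beside 2670 CPM), and their difference was not tested.

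Arms of other X-linked miRNA clusters were listed for comparison. Of the 14 arms of miR-221, miR-222, miR-532, miR-501, miR-362, miR-500 and miR-188 in the table, 12 were tested, 0 were lower and 1 was higher by edgeR after adjustment and by DESeq2, and at an unadjusted p under 0.05, 2 were higher (miR-500-3p and miR-500-5p) and 1 was lower (miR-188-3p). The higher one was miR-500-3p, at 59.2, 62.3 and 68.5 CPM in the controls and at 108, 89.6 and 96.9 CPM after 4-NP (log2 fold change 0.61, SE 0.15, adjusted p = 0.0297). The median log2 fold change of the tested arms was 0.25, with a range from -0.83 (miR-188-3p) to 0.88 (miR-500-5p). Leaving out control replicate 1 or 2, or else 4-NP replicate 1 or 3, ended the call of miR-500-3p (adjusted p from 0.062 to 0.0957 by edgeR).

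Within the treated group, the samples differed in how many arms lay above the group mean. In 4-NP replicate 1, 9 of the 9 tested arms were above the mean of their group on the log2 scale. The count was 6 in 4-NP replicate 2 and 1 in 4-NP replicate 3. These deviations are of CPM without TMM factors, which were 1.05, 1.02 and 0.956 in 4-NP replicates 1, 2 and 3. Such factors would lower 4-NP replicate 1 the most, and the count was not made with them. Some margins in 4-NP replicate 1 were small, at 0.011 for miR-322-5p, 0.029 for miR-542-5p and 0.037 for miR-351-3p. Over all miRNAs, 4-NP replicate 3 also stood apart (chi-square per degree of freedom 820.7 and 941.8, against 191.5 between the other treated samples). The same count was not made over all miRNAs, so the shift cannot be called particular to the members. The largest single deviations were those of miR-322-3p (-0.80) and miR-450a-5p (-0.60) in 4-NP replicate 3. In the control samples 4 or 5 of the 9 arms lay above the group mean, with miR-351-5p in replicate 2 the farthest out (0.44). The calls of miR-322-5p, miR-503-5p and miR-351-5p held with any 1 of the 6 samples left out.

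Of tested miRNAs outside the cluster with a mean of at least 20 reads (479 miRNAs), the 5 whose pattern over the 6 samples was most like the mean pattern of the 9 arms were miR-203a-3p, miR-494-5p, miR-135a-5p, miR-199a-5p and miR-540-3p. Likeness was measured as the root mean square difference of centred log2(CPM + 1), which was 0.0797 for miR-203a-3p and up to 0.129 for miR-540-3p. The cluster's own arms were farther from their mean, at 0.24 for miR-503-3p to 0.787 for miR-503-5p. The 5 were picked as the closest of 479 and the 9 arms were not picked. The difference therefore cannot show that outside miRNAs follow the pattern better than the members do. The most abundant of the 5, miR-199a-5p, was at 3118, 3638 and 2964 CPM in the controls and at 1995, 1728 and 1686 CPM after 4-NP (log2 fold change -0.86, adjusted p = 0.00154 by edgeR). Its groups were apart, by less than those of miR-322-5p.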

How the data were processed

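Small RNA counts of 3 control and 3 4-NP samples of rat primary sertoli cells were analysed. Groups came from the sample labels, dose, time and animals from the study's methods, and the treated columns were matched to their samples by number. The authors deposited 1 table of read counts per small RNA, not normalized. Adapters carried molecular identifiers, but the counts are of reads, and floors cover counting error only. The submitters' processing notes name HISAT2 and DESeq2, and the paper names edgeR. The miRNA database, the genome build and the rule for reads that fit several miRNAs are not given in the sources used here. The identifier columns of the deposited table, of no known unit, entered no test.

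Levels are CPM of the sum of mature counts. The main test was the two-sided quasi-likelihood F test of edgeR 4.0.16 in R 4.3.3, with TMM normalization and filterByExpr, on all mature rows, with Benjamini-Hochberg adjustment over the 549 tested and a threshold of 0.05. Ratios to miR-322-5p used the same model with that arm's count as library size and no TMM factors. Precursor rows were fitted among all other small RNAs, scaled as the mature miRNAs were. Ratios of 5p to 3p reads were compared by exact permutation tests over samples. No samples of a group agreed within sampling noise (chi-square per degree of freedom 153.7 to 941.8). Alternatives were DESeq2 1.42.0, limma 3.58.1 on log2(CPM + 1), total-count scaling, RLE factors, library sizes without miR-21-5p, no filter, a minimum of 10 reads per sample, a replicate block and leaving out each sample. The sum of miR-450a-5p and miR-450b-5p and the alternatives for precursors were added after seeing the data. The fits were tested on simulated data.

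All member arms are named, as are lists of seed relatives, other X-linked clusters and cell type markers, and the 5 miRNAs most like the members in pattern. Members and lists were chosen with earlier results of these data known. Sequences and positions are those of RefSeq for GRCr8. The miR-15a-5p sequence was not used here.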

Additional observations from a re-analysis of the deposited data

How the results depend on the processing

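The falls of miR-322-5p (log2 fold change -1.54 to -1.37 over 15 alternatives), miR-503-5p (-2.53 to -2.15) and miR-351-5p (-1.82 to -1.55) stayed past the threshold under each alternative run. The count of tested miRNAs called higher was 41 and became 26 with the replicate block, which left 3 member arms lower and 56 miRNAs lower in all. Same-numbered samples did not deviate together (r = -0.30, -0.26 and -0.02). With 3 samples centred on the mean of their group, such r values constrain one another and cannot show whether the numbers mark pairs. The replicate block gave miR-450b-5p a log2 fold change of -0.56 (adjusted p = 0.0627, edgeR), miR-500-3p 0.61 (0.0513) and miR-143-3p -0.49 (0.0699). It gave the ratio of miR-351-3p to miR-322-5p a log2 change of 0.87 (adjusted p = 0.0542, edgeR). Small values changed sign without passing the threshold: library sizes without miR-21-5p gave 0.0152 for miR-542-5p and 0.0174 for miR-15b-5p, and leaving out 1 sample gave ranges of -0.168 to 0.0766 for miR-542-5p, -0.19 to 0.14 for miR-450a-5p, -0.160 to 0.0727 for miR-15b-5p and -0.26 to 0.11 for miR-125a-5p. The cause was not tested. The exact permutation test of ratios to miR-322-5p cannot go below p = 0.1, so none passed. Other scalings moved the median over all miRNAs by under 0.1 (log2). The shallowest arm, miR-450a-3p, had 4 to 13 reads in the controls and without a filter on low counts a log2 fold change of -1.34 (adjusted p = 0.226, edgeR).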

Other observations

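The further column of the table that is named for the molecular identifiers held 43, 37 and 42 for the precursor row mir-503 in the controls and 26, 14 and 27 after 4-NP, where the read counts were 159, 129 and 166 and 47, 24 and 57. Both columns put every treated sample below every control, and the ratio of the group means was 0.549 in the identifier column and 0.282 in the reads. For all 673 known mature miRNAs the identifier column held 1 in every sample with reads, whatever the read count. What the values of that column are is not given in the sources used here, and they are not taken as a second measure of level.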
